A study of Homo sapiens with 8 samples.

Results

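Lipid micelles were compared with micelles without lipid in Ribo-Seq libraries of differentiated Caco-2 cells, 4 of the 8 samples of the series. Caco-2 is a human colorectal cancer line that takes on features of small intestinal enterocytes once it is allowed to differentiate. The 2 lipid micelle libraries came from cells given micelles that the labels describe by BSA, oleic acid and cholesterol. The 2 libraries without lipid came from cells given micelles made of the bile salt taurocholate. Whether the lipid micelles also held taurocholate is not stated in the labels, so the lipid cargo and any difference in bile salt or albumin cannot be told apart. The other 4 samples, 2 differentiated controls and 2 undifferentiated cultures, entered the fit for its estimate of spread. All groups are 1 cell line, and nothing in the labels says that the replicates were separate cultures, so p-values measure the spread between these samples, which may be technical.

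The members were all small open reading frames (smORFs) of the count table, taken singly and summed over each host entry, meaning the gene name or names that the annotation gives a smORF. Of 24199 smORFs, 22251 had a count in at least 1 of the 4 libraries. The low-count filter left 15182 smORFs and 5185 of 7526 host entries for testing. A smORF upstream of a coding sequence (uORF), downstream of one (dORF) or on a transcript without a coding sequence (non-coding) was counted by the ribosome footprints over it, so a value here is not the translation or the RNA level of the host gene's main protein. Overlapping smORFs share footprints, and 70.3% of smORFs overlapped another, so sums over a host entry count some footprints more than once. Cultures were measured in bulk, so fewer cells using a gene and less RNA per cell cannot be told apart.

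Cells sense cholesterol in the endoplasmic reticulum membrane. When it is scarce, SCAP escorts the SREBP-2 precursor, the product of SREBF2, to the Golgi, where the proteases MBTPS1 and MBTPS2 release a factor that raises the genes of sterol synthesis and uptake. Cholesterol delivered to the cell holds this system back, and its oxidised products activate the liver X receptors. In enterocytes, absorbed oleic acid is re-esterified to triglyceride and packed with APOB and other apolipoproteins into chylomicrons. Upstream ORFs lie in the path of the scanning ribosome and can lower translation of the main frame.

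The micelle libraries held 574495 and 777940 counts without lipid and 703448 and 884711 with lipid, so the lipid libraries were the deeper within each replicate number. As a description, Pearson's r of log2 CPM across the 5185 host entries was 0.936 between the 2 libraries without lipid, 0.955 between the 2 with lipid, and 0.941 to 0.960 between libraries of different groups. Libraries of a group were no more alike than libraries across groups. Levels of single genes and smORFs are counts scaled to a common library total with edgeR's TMM factors (CPM). Levels summed over a list are CPM on the raw library totals, without those factors. Of 28 enterocyte markers, 11 had a smORF of their own and 9 were tested, with a summed level on the raw totals of 2693 to 2813 CPM without lipid and 2670 to 2982 CPM with lipid. CDX2, an intestinal transcription factor, had 324 and 485 counts without lipid and 368 and 562 with lipid, and MYO1A, the brush border myosin, had 814, 958, 1190 and 1103 counts in the same order. The defining brush border markers VIL1, ALPI and SI had no smORF entry of their own, and MME was at 0 counts in all 4 libraries. Of 11 goblet and secretory markers only REG4 had an entry, at 3 counts in 1 library without lipid and 0 in the others. Of 12 fibroblast, immune and endothelial markers 7 had an entry, with a summed level of 0 to 6.78 CPM in the 4 libraries.

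With groups alone in the model, lipid cargo gave no call. In edgeR's quasi-likelihood fit, none of the features passed, 0 of 15182 smORFs (0%) and 0 of 5185 host entries (0%), at an adjusted p of 0.05 and a log2 fold change of 1 or more in either direction. An unadjusted p under 0.05 was found for 624 smORFs (4.11%) and 213 host entries (4.11%), and the smallest adjusted p of any host entry was 0.354. With DESeq2 in place of edgeR 0 smORFs and 1 host entry, SNHG5 with SNORD50B, were called. The log2 fold changes, given throughout as lipid micelles minus micelles without lipid, were centred near 0, with a median of -0.01 for host entries and 50.9% of host entries and 51.2% of smORFs below 0. Both lipid libraries lay below both libraries without lipid for 16.1% of host entries and above both for 16.2%. For single smORFs these shares were 16.9% and 15.8%. An exact permutation test of 2 against 2 libraries cannot go below a two-sided p of 0.333, so no single value was tested that way.

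When replicate number was fitted as a block, over the 6 libraries of differentiated cells, 14 of 14360 smORFs (0.0975%) and 5 of 4949 host entries (0.101%) were called. Of the 14 smORFs, 10 fell and 4 rose with lipid micelles. All 10 that fell overlapped an annotated small RNA exon, and the 4 that rose were 3 uORFs of RPL13 and 1 smORF of MALAT1. Of the 5 host entries, 4 fell, each named for a small RNA beside its gene (EIF3A with SNORA19, MIR22HG with MIR22, POR with SNORA14A, SNHG5 with SNORD50B), and RPL13 rose. They were chosen by their values in this contrast. Set against the controls, the 4 lower host entries had log2 differences without lipid of 3.29 (SNORA19), 1.80 (MIR22), 2.39 (SNORA14A) and 1.61 (SNORD50B). With lipid micelles the differences from control were 0.97, 0.59, 0.95 and 0.21 in the same order. These differences reuse the micelle libraries that picked the entries, and the control libraries were also in the blocked fit. They are therefore no independent result. Without smORFs over small RNA exons, a setting added after the data were seen, the block called 3 smORFs, all higher, and 1 host entry, RPL13.

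**Figure D1:**
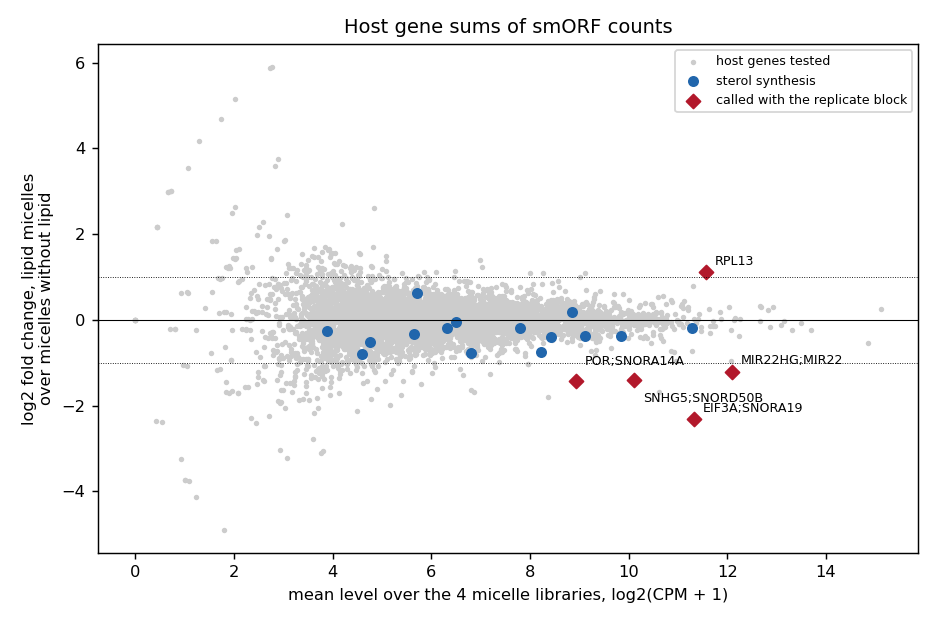
Each point is 1 of 5185 host entries, with the mean level over the 4 micelle libraries on the x axis as log2(CPM + 1) and the log2 fold change of lipid micelles over micelles without lipid on the y axis. Dotted lines mark a log2 fold change of 1 in either direction. Blue points are the 15 tested sterol synthesis genes, 13 of which lie below 0, and red diamonds are the 5 entries called with the replicate block.

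Of the smORFs that fell with the block, 6 overlap small nucleolar RNAs (snoRNAs), which guide modification of ribosomal and other RNAs in the nucleolus, and 4 overlap a microRNA precursor in whole or in part. Sequences of 7 are shown because they tell a reader what was counted. Each is printed 5′ to 3′ on its own strand (hg38) as the annotation gives it, with the first codon in capitals. All bases of each of these 5 lie inside the snoRNA exon.
SNORA19, in EIF3A, IEC_17534, chr10:119060071-119060088, minus strand: ATGtgctatacaaataat
SNORA12, in CWF19L1, IEC_17557, chr10:100237236-100237259, minus strand: ATGggcctaactctgccacatata
SNORA14A, in POR, IEC_03504, chr7:75943818-75943844, plus strand: ATGcttccaagatatgagcgaatgcta
SNORD50B, in SNHG5, IEC_16539, chr6:85677624-85677653, minus strand: ATGatgaaacctatcccgaagctgataacc
SNORD49B, in SNHG29, IEC_03505, chr17:16439512-16439550, plus strand: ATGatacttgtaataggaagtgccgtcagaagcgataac

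The next smORF, IEC_16522 at chr17:38852929-38853021 on the minus strand, lies in RPL23, and its 66 bases in capitals belong to SNORA21.
SNORA21, in RPL23: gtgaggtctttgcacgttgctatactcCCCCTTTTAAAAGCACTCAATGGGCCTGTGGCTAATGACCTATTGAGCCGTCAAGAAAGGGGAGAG
IEC_16521, at chr17:1713903-1713971 on the minus strand, spans most of the MIR22 hairpin, and the capitals mark mature miR-22-3p within it.
MIR22 smORF: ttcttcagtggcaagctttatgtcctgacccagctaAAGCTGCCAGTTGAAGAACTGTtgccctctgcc
RefSeq (GRCh38.p14) gives the mature microRNA as follows, with the seed, bases 2 to 8, in capitals.
miR-22-3p: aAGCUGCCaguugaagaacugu

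The SNORA19 smORF had 1786 and 6911 CPM without lipid and 321 and 1402 CPM with lipid. Both lipid libraries were below both others, while the replicates of each group differed several-fold, with replicate 2 the higher in both groups. Its log2 fold change was -2.33 ± 0.76 (SE, edgeR, n = 2 libraries a group, adjusted p = 0.999) and -2.40 ± 0.26 with the block (adjusted p = 5.65e-04, range 9.05e-15 to 1 over its alternatives). Without the block it ran from -3.76 without replicate 2 of lipid micelles to -1.04 without replicate 2 of micelles without lipid.
The SNORD50B smORF was at 1325 and 1622 CPM without lipid and 519 and 534 CPM with lipid, groups that did not overlap and whose replicates lay close together. Its change was -1.48 ± 0.31 on the log2 scale, and -1.47 ± 0.21 with the block (adjusted p = 0.0135, range 1.58e-04 to 1).
The SNORD49B smORF also had separate groups, at 2380 and 2245 CPM without lipid against 1027 and 1104 CPM with lipid, with a blocked log2 fold change of -1.12 ± 0.19 (adjusted p = 0.0399, range 0.00467 to 1). All 14 tested smORFs of its host entry, the spliced RNA SNHG29, were below 0 with separate groups. Several of the 14 share footprints and had nearly the same counts.
The SNORA14A smORF, with 488 and 965 CPM without lipid and 123 and 408 CPM with lipid, did not overlap between groups either (blocked log2 fold change -1.56 ± 0.23, adjusted p = 0.0174, range 3.09e-04 to 1). As single libraries were left out its log2 fold change ran from -2.56 without replicate 2 to -0.83 without replicate 1 of lipid micelles.
The SNORA21 smORF had 132 and 207 CPM without lipid and 65.4 and 45.4 CPM with lipid (blocked log2 fold change -1.62 ± 0.29, adjusted p = 0.0470, range 0.00103 to 1).
For SNORA12 the groups overlapped: 1496 and 3868 CPM without lipid stood against 401 and 2318 CPM with lipid, with a blocked log2 fold change of -1.33 ± 0.24 (adjusted p = 0.0470, range 0.00192 to 1). Without the block it ran from -2.74 without replicate 2 of lipid micelles to -0.12 without replicate 2 of micelles without lipid.
The MIR22 smORF also overlapped between groups, with 716 and 2757 CPM without lipid and 432 and 1009 CPM with lipid, with a blocked log2 fold change of -1.09 ± 0.20 (adjusted p = 0.0470, range 0.00223 to 1). Without the block its log2 fold change ran from -2.005 to 0.026 as single libraries were left out. Both further called smORFs over the same hairpin, IEC_15523 and IEC_22851, hold these bases and had nearly the same counts. The remaining one, IEC_23396 in the entry of MIR374B, FTX and RN7SL648P on chromosome X, has 13 of its 228 bases in MIR374B and had 20 and 56 counts without lipid and 8 and 14 with lipid. Its log2 fold change of -2.01 was -1.32 without replicate 2 of micelles without lipid.

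Values were also counted over all small RNA exons, with the 10 called smORFs left in although they were chosen for lower values. Among the H/ACA snoRNAs below these are the smORFs of SNORA19, SNORA12, SNORA14A and SNORA21, and among the C/D snoRNAs those of SNORD50B and SNORD49B. Of the 178 tested smORFs over a small RNA exon, 71.9% had a log2 fold change below 0 and 36.5% had both lipid libraries below both others, against 51.2% and 16.9% of all smORFs. All 12 smORFs over H/ACA snoRNAs, the class that guides pseudouridylation, were below 0, with a median log2 fold change of -1.36 and 9 with separated groups. Of the 30 over C/D snoRNAs, the class that guides ribose methylation, 27 were below 0 with a median of -0.74 and 18 with separated groups. The 41 over microRNA precursors had a median of -0.16, with 27 below 0. The 92 over other small RNAs, the largest class, had a median of -0.22, or -0.08 with the block. Of these, 59 were below 0 and 31 had separated, lower groups. The larger changes were thus over snoRNAs. Several smORFs of these classes lie over the same small RNA and share footprints, as at SNORD49B in SNHG29. The counts and shares above are therefore not of independent members. In total, smORFs over snoRNA exons took 3.62% and 4.66% of the counts without lipid, 1.95% and 2.47% with lipid and 2.27% and 3.10% in the differentiated controls. In this total the libraries without lipid were thus above both other groups, and the lipid libraries lay near the controls. Single smORFs differed: lipid micelles minus control was 0.98 on the log2 scale for the SNORA19 smORF and 1.95 for the SNORA12 smORF. The medians of that difference were -0.48 over H/ACA and -0.35 over C/D snoRNAs. Whether footprints over snoRNAs come from ribosomes or from other RNA of like size was not tested.

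**Figure D2:**
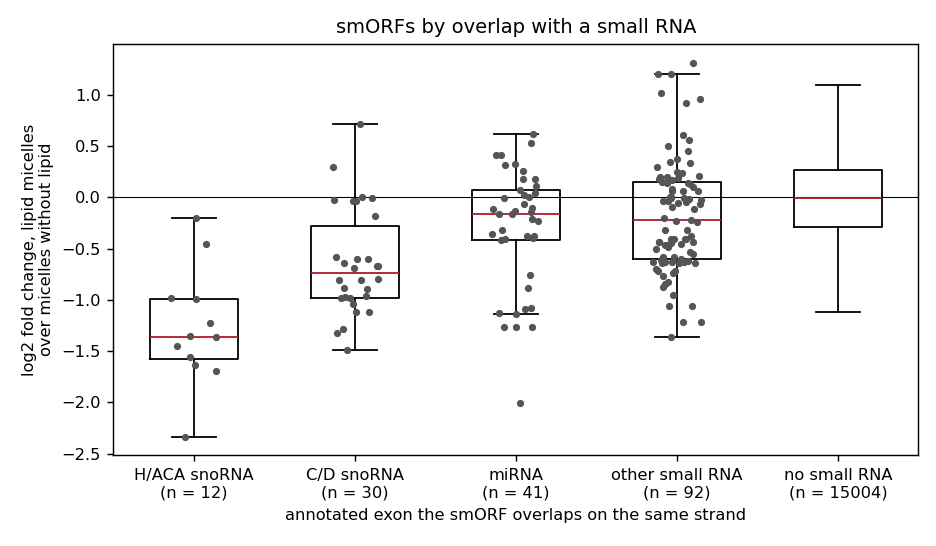
The log2 fold change of lipid micelles over micelles without lipid is plotted for smORFs by the small RNA exon they overlap. Boxes give quartiles with the median in red, whiskers reach the last value within the usual box-plot limit, and grey points are single smORFs (not drawn for the 15004 smORFs over no small RNA). The 3 smORFs over scaRNAs are left out, and all 12 smORFs over H/ACA snoRNAs lie below 0.

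RPL13, a protein of the large ribosomal subunit, had 4 smORFs in its 5′ region on chromosome 16, of which 3 end at the same base and share most footprints. The host entry was at 1275 and 2586 CPM without lipid and 3221 and 5097 CPM with lipid, so the groups did not overlap although replicate 2 was the higher in each. Its log2 fold change was 1.11 ± 0.38 (adjusted p = 0.959) and 1.15 ± 0.17 with the block (adjusted p = 0.0125, range 5.14e-06 to 1 over its alternatives). Leaving out replicate 1 of micelles without lipid gave 0.69 and leaving out replicate 2 gave 1.71, without the block. The controls were at 1925 and 3111 CPM. RPL13 has processed pseudogenes in the genome, and how shared footprints were assigned is not given in the sources used here, so its value is uncertain.
MALAT1, a long nuclear RNA, held the fourth smORF that rose with the block. IEC_08997, at chr11:65504814-65504879 on the plus strand, is printed because it is the only called smORF that lies neither on a small RNA nor in a 5′ region.
MALAT1 smORF: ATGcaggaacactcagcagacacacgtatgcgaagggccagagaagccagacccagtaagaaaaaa
It had 10 and 12 counts without lipid, 38 and 62 with lipid and 24 and 29 in the controls, with a log2 fold change of 1.89 ± 0.40 and an adjusted p of 0.999, or 0.0470 with the block (range 0.00586 to 1). IEC_11027 (1, 7, 15 and 36 counts) and IEC_08996 (38, 31, 70 and 206 counts, both in the order without lipid, then with lipid) overlap it and were called by the block in the 4 micelle libraries alone and with no low-count filter. Across MALAT1, 44 of 45 tested smORFs were above 0, 18 of them with separated groups. Over all smORFs 51.2% were below 0 and 15.8% had both lipid libraries above both others. MALAT1 was named for its called smORF, and some of the 45 overlap and share footprints, so they are not independent members. The median log2 fold change was 0.86. The summed level was 2490 and 1211 CPM without lipid, 3404 and 3025 CPM with lipid, and 4031 and 1987 CPM in the controls. The lipid libraries lay within the range of the controls.

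Sterol synthesis was the list that the cholesterol cargo bears on most directly. Of its 24 genes, 15 were tested as host entries. With lipid micelles 13 of 15 had a log2 fold change below 0 and 2 above, 7 had both lipid libraries below both others and 1 above, against 50.9%, 16.1% and 16.2% of all host entries. The median was -0.32, against -0.01 over all host entries. None passed the test with or without the block, and 2 had an unadjusted p under 0.05. Leaving out replicate 1 of micelles without lipid gave a median of -0.21 with 10 of 15 below 0. The list was chosen with earlier results of these data known, so its direction is no independent support.

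The early steps build isoprenoid units from acetyl-CoA. ACAT2, the first thiolase, had 2, 1, 5 and 5 counts and was not tested. HMGCS1, the HMG-CoA synthase, was at 101 and 67.7 CPM without lipid and 79.3 and 68.0 CPM with lipid, which overlap (log2 fold change -0.19 ± 0.32).
MVD, which decarboxylates mevalonate diphosphate, had 57.8 and 51.4 CPM without lipid and 38.2 and 48.4 CPM with lipid, all from dORFs (log2 fold change -0.32 ± 0.38). IDI1, the isomerase of isopentenyl diphosphate, was at 155 and 127 CPM without lipid and 66.1 and 96.9 CPM with lipid, with separated groups and a log2 fold change of -0.78 ± 0.29 (unadjusted p = 0.0195). Its 5 tested dORFs do not overlap one another, all 5 were below 0, from -0.88 to -0.65, and 4 had separated groups. The control libraries, at 98.3 and 95.6 CPM, also lay below both libraries without lipid.
FDPS, which makes farnesyl diphosphate, had 2598 and 2716 CPM without lipid and 2111 and 2568 CPM with lipid (-0.18 ± 0.19). In MVD and FDPS too the lipid libraries were both the lower. GGPS1 appears only in an entry shared with another gene and was not tested.

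SQLE, the squalene epoxidase and the second control point of the pathway, was at 932 and 1156 CPM without lipid and 794 and 821 CPM with lipid. The groups were separate by a gap smaller than the spread of the libraries without lipid, and the log2 fold change was -0.37 ± 0.21. Its 4 uORFs, which do not overlap, ranged from -0.51 to -0.26. LSS, the lanosterol synthase, had 10, 9, 9 and 10 counts and CYP51A1, the lanosterol demethylase, 13, 27, 3 and 25 counts, with log2 fold changes of -0.27 ± 0.52 and -0.80 ± 0.61, so a difference was not detectable at this depth.
TM7SF2, a sterol C14 reductase, had 334 and 411 CPM without lipid and 254 and 190 CPM with lipid, below the controls at 354 and 451 CPM as well. Its log2 fold change was -0.75 ± 0.27 (unadjusted p = 0.0161), from 1 uORF of 7 codons that starts with ATG at chr11:65111949-65111969. MSMO1, the C4 methyl oxidase, was at 558 and 683 CPM without lipid and 496 and 466 CPM with lipid (-0.37 ± 0.25). All 6 of its tested smORFs, which form 3 overlapping clusters, were below 0, from -0.84 to -0.20.
NSDHL, which acts with MSMO1 in C4 demethylation, had both lipid libraries above both others, at 46.9 and 33.8 CPM against 64.6 and 59.97 CPM (0.63 ± 0.45). ERG28, the scaffold of that complex, was at 95.7 and 88.0 CPM without lipid and 76.4 and 100.3 CPM with lipid (-0.05 ± 0.29).
In the last steps, EBP, the sterol isomerase, had 237 CPM in both libraries without lipid and 248 and 167 CPM with lipid (-0.19 ± 0.33). SC5D, the desaturase, had 27.1 and 33.8 CPM without lipid and 22.02 and 20.8 CPM with lipid (-0.52 ± 0.45). DHCR7, the final reductase, had 507 and 276 CPM without lipid and 349 and 241 CPM with lipid, with replicate 1 the higher in each group (-0.41 ± 0.35). Of the 8 DHCR7 smORFs, the 6 uORFs were below 0 and the 2 dORFs above, within a range from -0.86 to 0.24.

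Side by side with the controls, the list had a median log2 difference of 0.24 for micelles without lipid minus control and -0.06 for lipid micelles minus control. Both comparisons use the same control libraries. Summed over the list on the raw library totals, the level was 5791 and 6156 CPM without lipid and 5072 and 5153 CPM with lipid, so the groups did not overlap and differed by more than their replicates did. FDPS gave the most counts to this sum (1439 and 2007 without lipid, 1438 and 2227 with lipid). Its 4 uORFs overlap, so shared footprints are counted more than once.

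**Figure D3:**
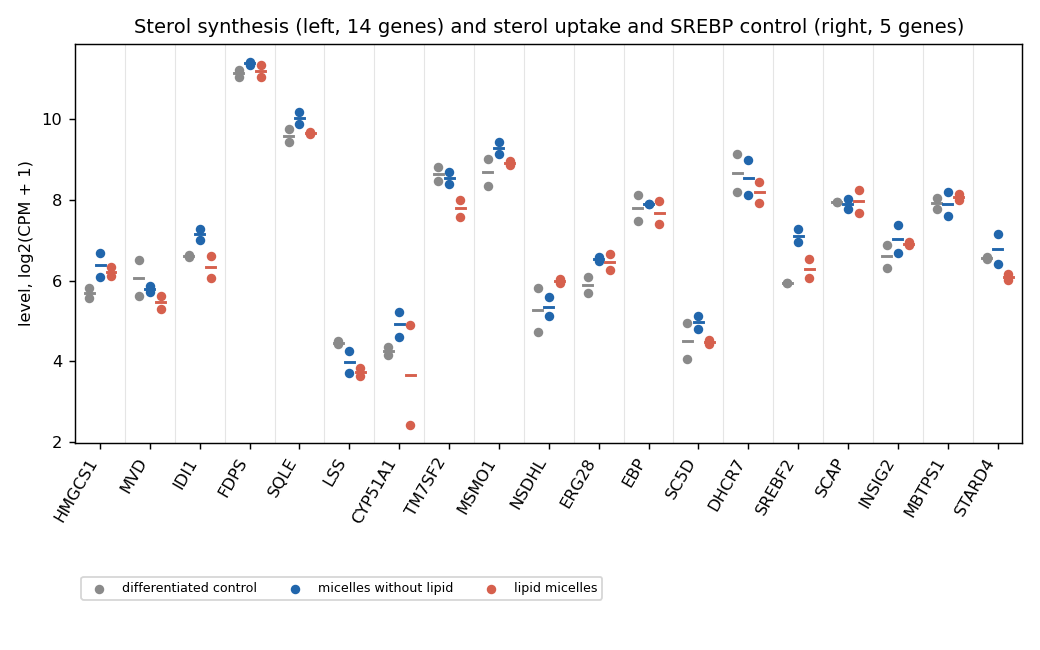
Levels of 19 tested genes of sterol synthesis, uptake and SREBP control, as log2(CPM + 1), in the 2 libraries each of differentiated control (grey), micelles without lipid (blue) and lipid micelles (red). Points are libraries and bars are means of 2. In IDI1, SQLE, TM7SF2, MSMO1, SREBF2 and STARD4 both red points lie below both blue points.

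Of the 22 genes of sterol uptake and SREBP control, 7 were tested, 5 of them below 0 and 2 with separated groups, both lower. The shares over all host entries were 50.9% below 0 and 16.1% separated and lower. SREBF2, which encodes SREBP-2, was at 123 and 154 CPM without lipid, 66.1 and 91.1 CPM with lipid and 61.0 and 60.7 CPM in the controls. The libraries without lipid stood above all others, with a log2 fold change of -0.81 ± 0.29 (unadjusted p = 0.0154, edgeR adjusted p = 1). STARD4, a cytosolic sterol carrier, had 141 and 83.9 CPM without lipid and 70.5 and 63.4 CPM with lipid (-0.74 ± 0.35). INSIG2, which retains SCAP, had 166 and 101 CPM without lipid and 117 and 122 CPM with lipid (-0.15 ± 0.32). SCAP and MBTPS1, the escort and the first protease, were at 0.08 ± 0.25 and 0.14 ± 0.26 on the log2 scale. INSIG1, a target of SREBP-2, had no smORF entry of its own.

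SREBP-2 binds sterol regulatory elements, often beside a CCAAT box bound by NF-Y. The 250 bases before each RefSeq start were searched on both strands for TCACNCCAC, a form of the sterol element, and for CCAAT, and 18 of the 19 genes were matched. The sterol element was found only at SREBF2, and in 1.09% of all genes (0.883% of all 35116 starts). CCAAT was found at 14 of the 18 genes, against 37.0% of all genes. All genes here means the 27305 with a RefSeq start, whether or not tested here, so these shares are no like background and enrichment was not tested. The matches are letters in a window and not measured binding. A window for each of the 4 genes with the lowest p in these lists is shown, on the gene's strand in GRCh38.p14, with the motif in capitals (ATTGG is CCAAT on the other strand).
SREBF2, sterol element, chr22:41832963-41832989: gacgcgccaTCACCCCACgcaccgctt
SREBF2, CCAAT, chr22:41832988-41833014: ttcgctcgcccATTGGctgagatgagc
TM7SF2, CCAAT, chr11:65111787-65111813: cccgagcgccgATTGGctggtgtgctg
IDI1, CCAAT, chr10:1049221-1049247: tcgaaagcgtgATTGGctggcggcgtc
STARD4, CCAAT, chr5:111512650-111512676: tcccgcgccagCCAATccgaacaagcg

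Among sterol efflux genes and liver X receptor targets, 4 of 10 were tested. APOE, an apolipoprotein of chylomicrons and an LXR target, was at 285 and 422 CPM without lipid, 618 and 891 CPM with lipid and 545 and 477 CPM in the controls. Both lipid libraries were above all 4 others, with a log2 fold change of 1.09 ± 0.30 (unadjusted p = 0.00282, adjusted p = 0.944, range 4.75e-04 to 1 over its alternatives). It was called by the block in the 4 micelle libraries alone, a fit with 1 residual degree of freedom, and not by the block in 6 libraries (adjusted p = 0.0767). The difference sat in 1 uORF of 8 codons (IEC_06033, chr19:44905819-44905842; 151 and 283 counts against 413 and 746), while the APOE dORF had 7 and 29 counts without lipid and 8 and 27 with lipid. The other 3 genes were all near 0 or below: NR1H3, which encodes LXR alpha, at -0.26 ± 0.24, NR1H2, which encodes LXR beta, at -0.25 ± 0.36, and the cholesterol exporter ABCA1 at -0.05 ± 0.22.

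Of 30 genes of triglyceride and lipoprotein assembly, 16 were tested, 10 above 0 and 6 below, with a median of 0.08. Both lipid libraries lay above both others in 3 of the 16, against 16.2% of all host entries, of which 50.9% were below 0. APOB, the structural protein of chylomicrons, was at 130 and 106 CPM without lipid, 172 and 225 CPM with lipid and 128 and 119 CPM in the controls (log2 fold change 0.76 ± 0.28, unadjusted p = 0.0167). APOA4, which enterocytes secrete during fat absorption, was at 986 and 1537 CPM without lipid and 1731 and 1952 CPM with lipid (0.54 ± 0.24, unadjusted p = 0.0381). In both genes the lipid libraries were above the other 4 libraries plotted. SAR1B, the GTPase that loads chylomicrons into transport vesicles, had 119 and 148 CPM without lipid and 166 and 167 CPM with lipid (0.32 ± 0.26). APOA1 had 531 and 882 CPM without lipid and 693 and 1187 CPM with lipid, which overlap, and its log2 fold change was 0.41 ± 0.35. None of the 16 passed the test.

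**Figure D4:**
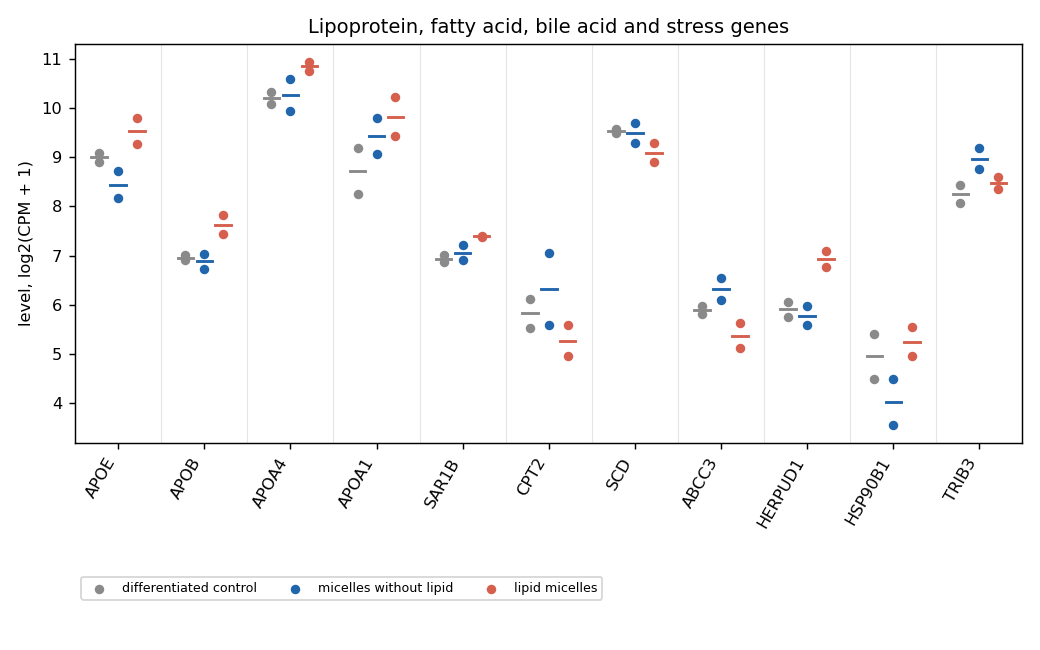
Levels of 11 genes of lipoprotein assembly, fatty acid handling, bile acid response and stress as log2(CPM + 1), plotted as in the sterol levels. Points are libraries and bars are means of 2, and in APOE, APOB, APOA4, SAR1B, HERPUD1 and HSP90B1 both lipid micelle libraries (red) lie above both libraries without lipid (blue).

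Oleic acid is a ligand of the PPAR family, whose targets burn and bind fatty acids. Of 30 fatty acid response genes, 8 were tested, 7 below 0 (50.9% of all host entries were) with a median of -0.25, and none passed the test. CPT2, the inner carnitine palmitoyltransferase, had 26 and 97 counts without lipid and 32 and 26 with lipid, a log2 fold change of -1.25 ± 0.49 with the high count in replicate 2 of micelles without lipid. UCP2, a mitochondrial carrier, was at 543 and 455 CPM without lipid and 420 and 416 CPM with lipid (-0.25 ± 0.20), and ACAA2, a beta-oxidation thiolase, had 17, 6, 8 and 9 counts. PPARG was at -0.25 ± 0.31. Of 18 fatty acid synthesis genes, 7 were tested, with a median of -0.20 and 5 below 0. SCD, the desaturase that makes oleic acid, was at 827 and 621 CPM without lipid and 477 and 623 CPM with lipid, groups that overlap (-0.39 ± 0.25). ELOVL1 (0.43 ± 0.41), ACLY (0.30 ± 0.30) and MID1IP1 (-0.30 ± 0.30) had separated groups with log2 fold changes about as large as their standard errors.

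Taurocholate was named only in the label without lipid, and 3 of 11 bile acid response genes were tested. ABCC3, a basolateral exporter of bile acid conjugates, had 92.1 and 67.7 CPM without lipid, 33.8 and 48.4 CPM with lipid and 55.1 and 62.0 CPM in the controls (-0.94 ± 0.35, unadjusted p = 0.0192). SLC51B, a subunit of the basolateral bile acid carrier and an FXR target, overlapped between groups at 25, 63, 28 and 57 counts (-0.29 ± 0.45), and ABCC2, the apical exporter, was at 0.07 ± 0.20.

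Of 30 genes of the unfolded protein and integrated stress responses, 12 were tested, 7 above 0, 4 with both lipid libraries above both others and 2 below. Over all host entries 50.9% were below 0, and 16.2% and 16.1% were separated above and below. HERPUD1, an endoplasmic reticulum protein that serves degradation of misfolded proteins, was at 46.9 and 62.3 CPM without lipid, 109 and 135 CPM with lipid and 53.1 and 65.9 CPM in the controls (1.15 ± 0.32, unadjusted p = 0.00345). Its 2 uORFs, at chr16:56932157-56932183, share a stop and most footprints. HSP90B1, an endoplasmic reticulum chaperone, had 12 and 8 counts without lipid and 31 and 26 with lipid (1.24 ± 0.50). A smORF of the separate entry of HSP90B1 with MIR3652, IEC_01662, had 44 and 16 counts without lipid and 45 and 48 with lipid. Its groups overlapped, with a log2 fold change of 0.31, so the higher value held for only part of the gene's smORFs. Other members of the list did not rise. HSPA5 had 537 and 309 counts without lipid and 498 and 269 with lipid, lower with lipid within each replicate number. PDIA4 had 5 and 10 counts without lipid and 5 and 12 with lipid. TRIB3, a target of ATF4, was lower with lipid, at 430 and 585 CPM without lipid and 327 and 386 CPM with lipid (-0.51 ± 0.25). ASNS, another ATF4 target, had 3, 7, 2 and 0 counts, a ratio of 0.166 (95% counting interval 0.018 to 0.781).

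Of 19 genes of oxidative and metal stress 7 were tested, with a median of -0.16. SLC7A11, the cystine importer, had 4, 5, 0 and 2 counts (ratio 0.185, 95% counting interval 0.019 to 0.893), and TXNRD1, SQSTM1 and NFE2L2 were at -0.74 ± 0.45, 0.85 ± 0.74 and 0.31 ± 0.26. Of 25 inflammatory and immediate early genes 7 were tested, with a median of -0.08. IRF1, TNFAIP3 and JUN had both lipid libraries below both others (-0.79 ± 0.39, -1.08 ± 0.60 and -0.40 ± 0.27), and STAT3 had both above (0.41 ± 0.33). Of all host entries 16.1% and 16.2% were separated in these directions. Enterocyte genes showed a median of 0.13 over 9 tested, with KLF5 at -0.43 ± 0.23, DPP4 at 0.98 ± 0.60, HNF4A at 0.35 ± 0.26 and SLC2A2 at 0.28 ± 0.38. Cell cycle genes had a median of -0.07 over 14 tested. Among them CCNB2 had 0 and 0 counts without lipid and 2 and 8 with lipid, at least 2.77-fold higher when set against a floor of 3 counts over the 2 libraries without lipid together, with 8 of its 10 counts in 1 library. CDC25A had 0 and 0 counts without lipid and 15 and 1 with lipid, at least 4.44-fold higher on the same floor, with 15 of the 16 counts in 1 library. FOXM1 had 6, 6, 3 and 3 counts and PCNA 7, 2, 1 and 3.

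Outside the lists, the host entries with the smallest p and separated groups were picked as extremes by their values. VDAC3, a pore of the outer mitochondrial membrane, was at 57.8 and 79.8 CPM without lipid, 164 and 201 CPM with lipid and 126 and 130 CPM in the controls. Its log2 fold change was 1.40 ± 0.27 (unadjusted p = 1.82e-04, adjusted p = 0.354) and its 7 uORFs, which form 1 overlapping cluster, were all above 0. PPP3CC, a catalytic subunit of calcineurin, had 4 and 6 counts without lipid, 30 and 45 with lipid and 9 and 21 in the controls (2.61 ± 0.51, adjusted p = 0.354). TBRG1 was at 164 CPM in both libraries without lipid and at 373 and 323 CPM with lipid (1.08 ± 0.23, adjusted p = 0.582). All 10 of its uORFs were above 0 with separated groups, but they overlap and share footprints.
CBR1, a carbonyl reductase, was at 179 and 208 CPM without lipid and 423 and 412 CPM with lipid (1.10 ± 0.28). F11R, the tight junction protein JAM-A, was at 318 and 375 CPM without lipid and 599 and 778 CPM with lipid (0.99 ± 0.26). The antisense RNA NR2F2-AS1 was at 195 and 240 CPM without lipid and 373 and 405 CPM with lipid (0.84 ± 0.24). Its 9 tested smORFs form 1 overlapping cluster, and 8 had separated groups.
BIN1, a membrane-bending protein, had 4 and 13 counts without lipid and 23 and 44 with lipid (1.71 ± 0.49). CD55, a complement inhibitor, had 0 and 1 counts without lipid and 4 and 16 with lipid, a ratio of 16.6 with a 95% counting interval from 2.66 to 690. The adjusted p fell under 0.05 with the block in the 4 micelle libraries alone for VDAC3 (range over its alternatives 0.00231 to 1), PPP3CC (0.00263 to 1), TBRG1 (0.0132 to 1) and CBR1 (0.00406 to 1). F11R also fell under 0.05 there (lowest 0.00406) but was not called. With the block in 6 libraries the adjusted p was 0.0767 for VDAC3, PPP3CC and F11R, 0.0890 for TBRG1 and 0.0814 for CBR1.
For 7 of the 10 higher entries (VDAC3, PPP3CC, TBRG1, CBR1, APOE, CD55 and BIN1) the libraries without lipid were below both control libraries too. CBR1 was so by a small margin, at 208 against 209 CPM. The same libraries without lipid picked these entries, so low values there are partly built in. The share over all host entries is not given, and no result is read from this count.

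On the lower side, 3 of the 10 were snoRNA entries: the SNHG5 entry with SNORD50B (1450 and 1746 CPM without lipid, 603 and 604 CPM with lipid), RPL23 with SNORA21 and RPL4 with SNORD18A. The last 2 were called by the block in the 4 micelle libraries alone as well. GAS5 and SNHG5, spliced RNAs whose introns carry snoRNAs, were also lower outside the snoRNA exons. GAS5 was at 2939 and 3255 CPM without lipid, 1841 and 1928 CPM with lipid and 2332 and 2709 CPM in the controls (-0.72 ± 0.19). Of its 30 tested smORFs, which form 2 overlapping clusters, 26 were below 0. SNHG5 was at 2167 and 2491 CPM without lipid and 1468 and 1330 CPM with lipid (-0.74 ± 0.19). Of its 23 tested smORFs, which form 3 overlapping clusters, 22 were below 0.
SNAI3-AS1 was at 2537 and 2322 CPM without lipid, 1370 and 1506 CPM with lipid and 1786 and 1687 CPM in the controls (-0.76 ± 0.18, unadjusted p = 0.00134). Its lowest edgeR adjusted p over the alternatives was 0.0340, with log2 fold changes from -0.82 to -0.69, so it was not called. It and NR2F2-AS1 are antisense RNAs, and since strand use in counting is not given in the sources used here, their footprints and those of the opposite gene may not be told apart. The lipid libraries of GAS5, SNHG5 and SNAI3-AS1 were below both the control and the other micelle libraries. ARMC6 was at 217 and 135 CPM without lipid and 51.4 and 57.7 CPM with lipid (-1.67 ± 0.45), but the controls, at 226 and 74.9 CPM, spanned most of that difference and 1 smORF per cluster gave -0.89. Its adjusted p ranged from 1.51e-04 with the block in the 4 micelle libraries alone to 1, and was 0.144 with the block in 6 libraries.
The pseudogene RP9P was at 157 and 104 CPM without lipid and 55.8 and 61.1 CPM with lipid (-1.15 ± 0.31). EPN3, an endocytic adaptor, had 12 and 18 counts without lipid and 4 and 0 with lipid, and PCED1B had 5, 27, 1 and 3 counts.

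**Figure D5:**
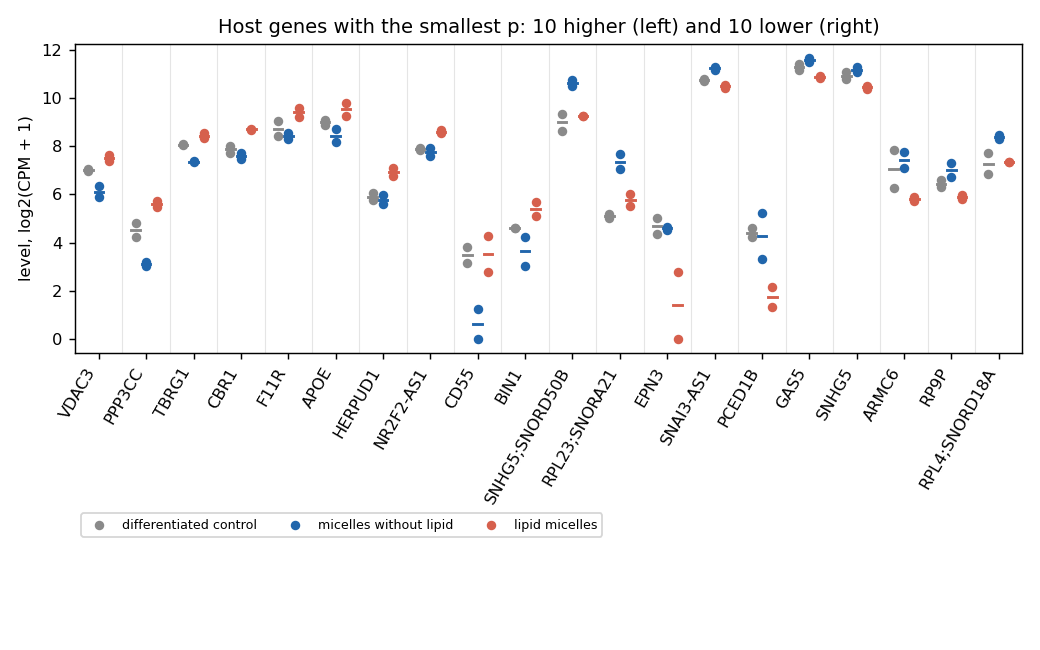
Levels of the 10 higher (left) and 10 lower (right) host entries with the smallest unadjusted p among those whose micelle groups did not overlap, as log2(CPM + 1). Grey points are the 2 differentiated controls, blue the 2 libraries without lipid and red the 2 lipid micelle libraries, with bars at the means. The red points of GAS5, SNHG5 and SNAI3-AS1 lie below the grey and the blue points.

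Among single smORFs over no small RNA, the extremes on the lower side were uORFs of RDH10, which oxidises retinol (44 and 69 counts without lipid, 29 and 32 with lipid), of the entry of UBOX5 and FASTKD5 (32 and 31 against 16 and 9) and of SHISA5 (42 and 96 against 28 and 41). Their log2 fold changes were -1.13 ± 0.30, -1.58 ± 0.42 and -1.23 ± 0.34. For SHISA5 the other 2 tested smORFs were above 0.

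By location, uORFs were centred at 0.00 on the log2 scale (11112 tested), dORFs at -0.02 (879) and non-coding smORFs at -0.06 (3042). Leaving the smORFs over small RNAs out, the non-coding median was -0.05. Non-coding smORFs took 24.5% and 26.5% of the counts without lipid and 20.98% and 23.2% with lipid, and uORFs 70.7% and 69.0% against 74.7% and 71.8%. The 2 micelle groups did not overlap in either share. The controls, with 22.3% and 23.9% non-coding and 72.6% and 71.1% uORF, overlapped the lipid libraries in both. SmORFs over small RNA exons took 6.99% and 9.17% of the counts without lipid and 5.21% and 6.10% with lipid. Their fall enters the non-coding share, and as parts of 1 total the shares move together. The start codon also split the smORFs: 57.1% of 5925 that start with ATG had a log2 fold change below 0 (median -0.08), against 47.4% of 9257 with another codon (median 0.03). Within uORFs over no small RNA the medians were -0.08 for ATG and 0.04 for other codons. As a share of all counts, ATG smORFs held 35.8% in both libraries without lipid and 32.3% and 34.9% with lipid, so the lower lipid value came mostly from replicate 1. The 1278 tested smORFs of at most 10 codons had a median of -0.11, with 57.7% below 0. These classes overlap, and their parts were not tested apart.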

How the data were processed

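Ribosome footprints of Caco-2 cells (cycloheximide, RNase I, rRNA depletion, gel size selection) were sequenced in 8 libraries. The authors deposited 1 table of raw read counts per smORF and library, and an annotation of smORFs with RibORF and PhyloCSF score columns that the authors computed and that were not used as measurements. The submitters' processing notes name STAR 2.7.11a, HOMER, hg38 and GRCh38.p13. How overlapping smORFs and multiply mapped reads were counted is not given in the sources used here.

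Counts were tested singly and summed per host entry with edgeR 4.0.16 in R 4.3.3 (TMM, low-count filter, quasi-likelihood test, two-sided, Benjamini-Hochberg adjustment over all features tested) in all 8 libraries with group as the only term. Calls had adjusted p below 0.05 together with a log2 fold change of 1 or more in either direction. DESeq2 1.42.0, the replicate block, other filters and leaving out each library were alternatives. Total counts of the 4 micelle libraries ran from 574495 to 884711. Intervals and floors cover counting error only.

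The labels do not say what a replicate number shares. Deviations of same-numbered smORFs from their group means gave r of 0.198, 0.119 and 0.109 between control, lipid-free and lipid groups (0.140, 0.130 and 0.0897 for host entries). On the smORF values the numbers were taken as paired. Pairs with the undifferentiated group gave r from -0.065 to 0.021. Replicate 2 was the deeper library in each differentiated group and replicate 1 in the undifferentiated group. Pairing and a shared order of depth cannot be told apart, and all calls with the block rest on the pairing. The members and lists were chosen with earlier results of these data known. Genes named are those called with or without the block, the 10 host entries in each direction with the smallest unadjusted p and separated groups, the 3 such smORFs in each direction over no small RNA, tested sterol synthesis and SREBP genes (a few are not reported here, though they stay in the list counts and medians), the 4 of lowest p in each other list, and MYO1A and CDX2 as markers. HSPA5 and PDIA4 are named outside these rules, to set beside HERPUD1 and HSP90B1. Small RNA exons are those of GENCODE 44. Promoter and microRNA sequences are RefSeq's (GRCh38.p14).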

Additional observations from a re-analysis of the deposited data

How the results depend on the processing

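With the replicate block, 14 smORFs and 5 host entries were called in the 6 differentiated libraries, and 25 and 21 in the 4 micelle libraries alone. Without the low-count filter 23 smORFs and 1 host entry were called, and DESeq2 called 1 host entry. The block without smORFs over small RNA exons, added after the data were seen, gave 3 and 1. Leaving out single libraries gave 0 to 1 called smORFs, with the 1 call when replicate 1 of micelles without lipid was left out, and 0 called host entries. The sterol synthesis median of -0.32 became -0.34 in the 4 micelle libraries with or without the block, -0.29 with no filter, -0.31 with the block in the 6 libraries, and -0.35 to -0.21 as single libraries were left out. Of the named host entries, the block in the 4 micelle libraries, which leaves 1 residual degree of freedom, called APOE, ARMC6, CBR1, PPP3CC, TBRG1, VDAC3, RPL23 with SNORA21 and RPL4 with SNORD18A beside the 5 called in 6 libraries, and no other. The cause was not tested.

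Of the named genes and smORFs, 15 changed direction when 1 library was left out, with log2 fold changes from the lowest to the highest as follows. Among sterol genes, DHCR7 ran from -0.78 to 0.094, LSS from -0.55 to 0.016, EBP from -0.50 to 0.073, INSIG2 from -0.47 to 0.24, HMGCS1 from -0.46 to 0.12, ERG28 from -0.26 to 0.13, SCAP from -0.23 to 0.33 and MBTPS1 from -0.12 to 0.47. Elsewhere, ACAA2 ran from -1.46 to 0.43, NR1H2 from -0.72 to 0.38, SLC51B from -0.68 to 0.25, ABCA1 from -0.36 to 0.21, APOA1 from -0.026 to 0.82, ABCC2 from -0.0070 to 0.15 and the MIR22 smORF IEC_16521 from -2.005 to 0.026. With 2 libraries a group, no library could be set apart as an outlier within its group.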
